A study of Mus musculus with 2 samples.

Results

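Of 32285 genes counted in mouse lung cells, 9 belong to signalling by calcitonin gene-related peptide (CGRP), adrenomedullin and apelin as described here. They were *Calca*, *Adm* and *Apln*, which encode the peptides, *Calcrl* and *Aplnr*, which encode the receptors, *Ramp1*, *Ramp2* and *Ramp3*, which encode partner proteins of *Calcrl*, and *Pcsk1n*, which encodes an inhibitor of the prohormone-cutting enzyme PCSK1. They were taken by name and chosen by measured values of these libraries, among them a lower *Calca* level in alveolar type 2 (AT2) cells of the mutant, so differences between the libraries are given as descriptions. Each of the 9 genes had at least 1 count in both libraries.

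CGRP and adrenomedullin act through one receptor protein, the product of *Calcrl*, which is brought to the cell surface by a RAMP protein. With RAMP1 it forms the CGRP receptor, and with RAMP2 or RAMP3 it forms adrenomedullin receptors, and both kinds signal mainly through cAMP. *Calca* is made by sensory neurons and, in the lung, by the rare neuroendocrine cells of the airway lining. Adrenomedullin keeps the endothelial barrier tight and is needed for lymphatic vessels, and apelin signals from capillary tip cells and aerocytes, the thin gas-exchange endothelial cells, to endothelial cells that carry its receptor.

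Droplet-based 3′ scRNA-Seq counts unique molecular identifiers (UMIs), so that PCR copies of 1 captured molecule count once. There was 1 library from *Cebpa* fl/fl mice (labelled FF), in which both copies of *Cebpa* are flanked by loxP sites and whose name gives no Cre driver, and 1 from *Cebpa* ΔSftpc mice (labelled KO), which carry the same alleles and the Sftpc-CreERT2 driver. That driver is active in AT2 cells after tamoxifen, given as 5 daily injections of 75 mg/kg, with a later round for late analyses. The lungs of both genotypes were taken 26 weeks after the first injection. The study states 3 mice per genotype on a mixed background and, in general, mice 3 months old; cells carried no mark of the mouse, so that each genotype was 1 sample. The libraries are called control (*Cebpa* fl/fl) and mutant (*Cebpa* ΔSftpc) below. No test between genotypes was possible, and every interval below covers counting error only, at 95%.

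After filtering, 11487 of 11721 barcodes remained in the control library and 13238 of 13373 in the mutant library, with medians of 4835 and 2607 UMIs per cell. AT2-like cells differed in depth, with medians of 21036 and 1472.5 UMIs. The libraries shared 44 barcodes among the cells kept, and leaving these out changed no value by more than counting error. Summed levels are given as a class's counts scaled to CPM (UMIs of a gene per 1e6 UMIs of all genes), and ratios as the log2 of the mutant over the control. *Cebpa* itself stood at 151 CPM in the control and 92.8 CPM in mutant AT2-like cells, a 3′ count that need not lie within the deleted part. Which mutant cells counted as AT2-like also depended on the clustering, as given below.

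RNA that is free in the suspension enters every droplet. Several non-endothelial classes of the mutant library carried more endothelial RNA: the summed level of 8 endothelial markers (*Pecam1*, *Cdh5*, *Cldn5* and others) was 751 and 1885 CPM in AT2-like cells, 1113 and 6369 CPM in AT1-like cells and 1284 and 2897 CPM in fibroblast-like cells of the control and mutant. Macrophage-like cells went the other way, with 11361 CPM in the 261 control cells and 1316 CPM in the 1084 mutant cells. Such values are set beside several receptor results outside the endothelium, but not beside all of them.

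**Figure D1:**
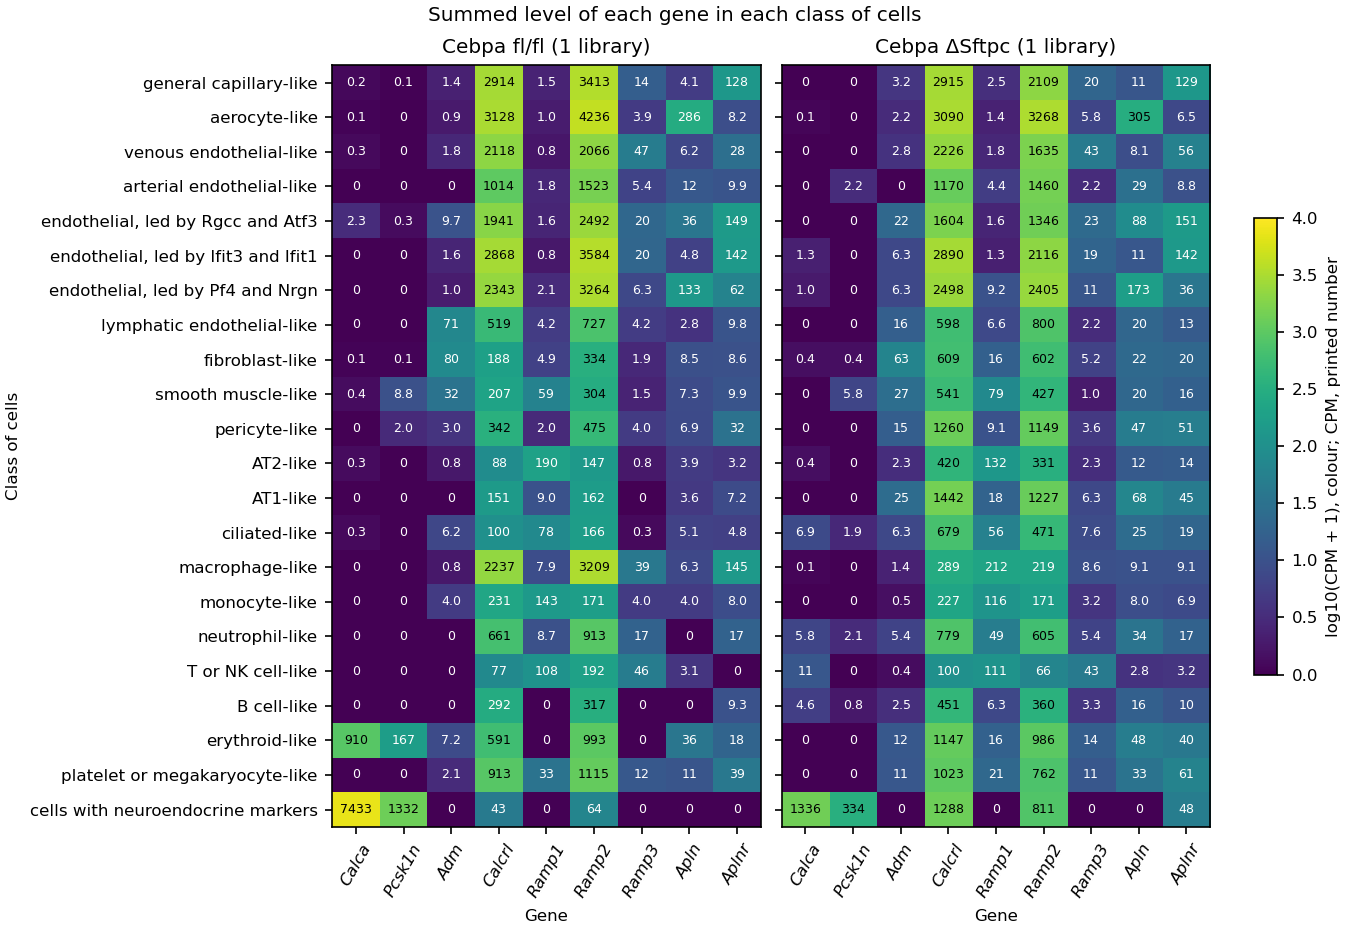
Summed CPM of the 9 genes (columns) in classes of cells (rows), in the control library (left) and the mutant library (right), with the number printed and the colour on a log10(CPM + 1) scale. Calca and Pcsk1n stand highest in the 4 and 8 cells with neuroendocrine markers, which are also counted in the classes that held them, Calcrl and Ramp2 in endothelial classes, Apln in aerocyte-like cells and Ramp1 outside the endothelium.

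The peptide genes are shown first by the DNA before their start sites, because *Calca* and *Pcsk1n* were held by the same cells and because *Adm* and *Apln* had higher levels in the same endothelial classes of the mutant library. Sequences are from RefSeq on GRCm38.p6, where 7 of the 9 genes had an entry, and each runs 5′ to 3′ over the 250 bases before the start on the gene's own strand. Capitals mark TGACGCAA, which joins parts of the cAMP response element and of the site bound by C/EBP factors, and GCGTG, one form of the hypoxia response core, on either strand (TTGCGTCA and CACGC in reverse).
*Calca*, chr7:114636358-114636607 (minus strand): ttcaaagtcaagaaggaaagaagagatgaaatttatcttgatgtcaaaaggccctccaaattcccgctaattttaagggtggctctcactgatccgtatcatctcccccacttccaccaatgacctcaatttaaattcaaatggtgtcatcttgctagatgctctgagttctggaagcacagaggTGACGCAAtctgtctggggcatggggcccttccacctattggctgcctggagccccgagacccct
*Pcsk1n*, chrX:7919572-7919821 (plus strand): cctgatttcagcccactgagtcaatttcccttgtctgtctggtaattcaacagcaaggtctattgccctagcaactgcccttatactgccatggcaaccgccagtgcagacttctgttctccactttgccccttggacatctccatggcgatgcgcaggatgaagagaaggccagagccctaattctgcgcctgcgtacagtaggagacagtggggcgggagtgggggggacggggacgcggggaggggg
*Adm*, chr7:110627407-110627656 (plus strand): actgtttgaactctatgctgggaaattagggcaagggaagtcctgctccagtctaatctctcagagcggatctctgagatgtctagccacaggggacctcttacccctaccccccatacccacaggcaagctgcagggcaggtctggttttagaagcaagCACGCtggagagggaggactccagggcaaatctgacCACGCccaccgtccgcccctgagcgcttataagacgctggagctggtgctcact
*Apln*, chrX:48034854-48035103 (minus strand): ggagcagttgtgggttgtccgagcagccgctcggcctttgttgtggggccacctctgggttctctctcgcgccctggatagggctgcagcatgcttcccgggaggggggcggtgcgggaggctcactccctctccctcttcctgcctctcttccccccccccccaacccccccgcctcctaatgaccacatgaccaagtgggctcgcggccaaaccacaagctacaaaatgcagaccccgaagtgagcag
TGACGCAA stood in the *Calca* window from base -65 to base -58 and in 0.438% of the 32851 windows of the table. GCGTG or its reverse stood in the *Adm* window 2 times, from -90 to -86 and from -54 to -50, and in 28.2% of all windows. None of the motifs searched, which also included TGACGTCA (1.55% of windows), the E-box CAGCTG (4271 windows) and the hypoxia core ACGTG (16.6%), was found in the *Pcsk1n* or *Apln* window. A match describes letters only, and no binding was measured.

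*Calca* RNA was held almost wholly by 4 cells of the control library. That library had 366 *Calca* UMIs in 20 cells, of which 4 cells held 115, 95, 77 and 59, together 346 UMIs or 94.5%. No other control cell had more than 3. The mutant library had 82 UMIs in 37 cells and at most 9 in 1 cell. The 5 top cells thus held 95.4% of *Calca* UMIs (interval 92.7% to 97.3%) in the control and 37.8% (27.3% to 49.2%) in the mutant.

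These 4 cells carried markers of pulmonary neuroendocrine cells, rare airway cells that sense the air and release peptides. Each showed 10 to 13 of 13 neuroendocrine markers, among them *Resp18*, a protein of secretory granules, at 43, 61, 36 and 68 UMIs in the same order. *Sftpc*, the surfactant gene that defines AT2 cells, stood at only 4 to 11 UMIs in each. The clustering placed 3 of them among erythroid-like cells and 1 in an unnamed cluster led by *Ccl5* and *Trbc2*, and none of 3 clusterings placed any of them among AT2-like cells. The level of *Calca* in the erythroid-like class of the control, 910 CPM, came from these 3 cells.

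Cells with at least 4 of the 13 markers, a limit chosen after the values were seen, numbered 4 in the control (0.0348% of cells) and 8 in the mutant (0.0604%). The intervals of these shares, 0.00949% to 0.0891% and 0.0261% to 0.119%, overlap. The cells differed in depth, with a median of 12169.5 UMIs in the control and 2629.5 in the mutant. All 12 had *Calca*, with 59 to 115 UMIs per cell in the control and 1 to 7 in the mutant, counts not corrected for this depth. As a share of their UMIs, *Calca* was 7433 CPM and 1336 CPM, a log2 ratio of -2.48 (-3.09 to -1.92). *Calca* and *Pcsk1n* were the 2 of the 9 genes measured in these cells and both were 2-fold or more lower in the mutant, beside 15.9% of the 157 genes measured, and 5.1% were higher; since *Calca* was chosen for this difference, nothing is read from the count. The 8 mutant cells were placed among neutrophil-like (4), ciliated-like (2) and B cell-like (2) cells, and they carried 27 *Calcrl* UMIs (1288 CPM), against 2 UMIs in the 4 control cells (43.0 CPM). Their endothelial markers stood at 4007 CPM, against 494 CPM, and the part of free RNA and depth in the *Calca* difference was not tested. With a limit of 3 markers the cells numbered 7 and 15 and held 346 and 30 *Calca* UMIs, and with a limit of 7 they numbered 4 and 4 and held 346 and 11.

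**Figure D2:**
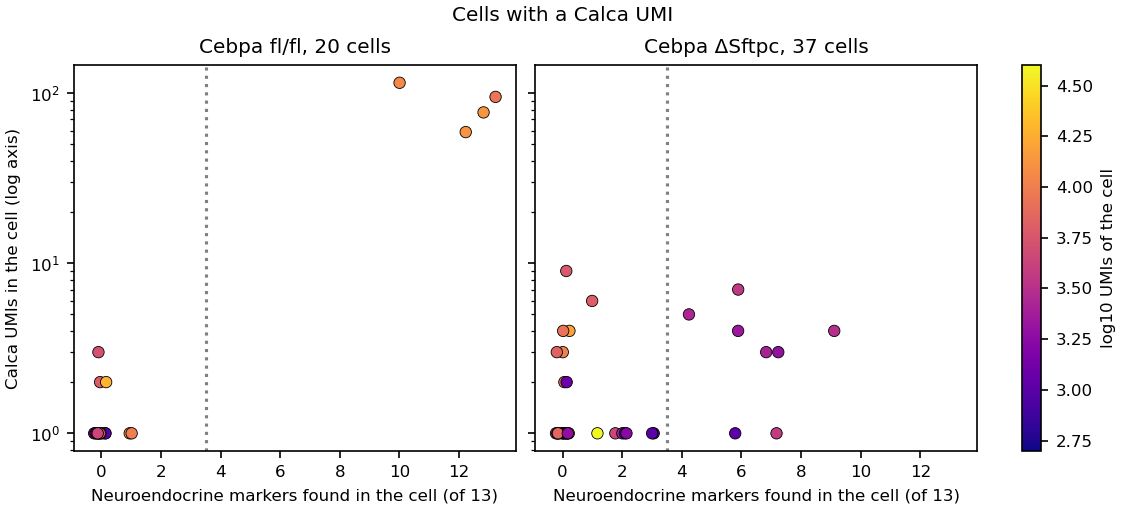
Each point is a cell with at least 1 Calca UMI, by the number of 13 neuroendocrine markers found in it (x axis, with a small random shift) and its Calca UMIs (y axis, log scale), coloured by its depth. The 4 control cells right of the dotted line hold 59 to 115 UMIs and the 8 mutant cells there hold 1 to 7.

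AT2-like cells, named from *Sftpc*, *Sftpa1*, *Slc34a2* and other markers, held 3 *Calca* UMIs in 474 control cells and 1 in 494 mutant cells. Both counts are at or below the floor of 3 counts used here, so no ratio is given. The mutant cell with *Calca* had 60585 UMIs of *Scgb1a1*, an airway secretory gene, and 6 of *Sftpc* among 104255, which goes against its class name. Clustered without integration, 440 control and 91 mutant cells were AT2-like, and 174 and 464 cells lay in an unnamed cluster led by Scgb1a1 and Wfdc2, so which mutant cells count as AT2-like depended on the clustering. The difference in AT2-like cells for which *Calca* was picked could therefore not be measured in the AT2-like class made here. If the 12 cells with neuroendocrine markers were added to the AT2-like cells, the class held 349 and 29 *Calca* UMIs and the log2 ratio was -1.68 (-2.28 to -1.13), and all but 3 and 1 of these UMIs came from the added cells. The value depended on the AT2-like cells around them, and was -0.92 (-1.53 to -0.37) with classes made without integration and -2.51 (-3.43 to -1.71) among cells with at least 3000 UMIs.

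In the mutant library, the largest group of *Calca* UMIs lay instead among T or NK cell-like cells, with 32 UMIs in 8 of 314 cells (11.4 CPM). The 36 such cells of the control had none, which allows up to 9.27 CPM at the floor of 3 counts, and the difference from that floor lay within counting error. None of the 8 cells had *Pcsk1n*, and at most 1 of the 13 neuroendocrine markers was found in any of them. Of the 32 UMIs, 22 lay in 4 of 5 cells with at least 3 of 6 markers of group 2 innate lymphoid cells (ILC2s), tissue lymphocytes known to make CGRP, and at most 1 of 10 T and NK cell markers. These 5 cells, a group chosen after their values were seen, had 43 UMIs of *Gata3*, a factor of ILC2s, 18 of *Il1rl1*, the receptor for interleukin 33, and 0 of the T cell gene *Cd3e*. *Gata3* and *Il1rl1* are among the 6 markers and *Cd3e* is among the 10. These counts therefore largely follow from the rule and are not separate evidence of what the cells are. *Calca* stood at 609 CPM in them and at 3.60 CPM in the other 309 T or NK cell-like cells, where 10 UMIs lay in 4 cells. The rule was set after the cells with *Calca* were seen, so this contrast only describes where the UMIs lay. No control cell of the class met this marker rule, so the genotypes could not be compared in it. Across all classes 9 and 36 cells met it, with 0 and 23 *Calca* UMIs.

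*Pcsk1n*, whose product holds back the enzyme that cuts prohormones, followed *Calca* in the neuroendocrine cells and had a second site in smooth muscle. The 4 control cells with most *Calca* had 10, 16, 27 and 9 *Pcsk1n* UMIs, together 62 of the library's 91 (68.1%). The 8 mutant cells had 7 of 26 UMIs, 6 of them with at least 1. The levels were 1332 CPM and 334 CPM, a log2 ratio of -2.00 (-3.37 to -0.87), again between cells of unequal depth. Smooth muscle-like cells of the cluster led by *Acta2* and *Myh11* had 20 UMIs in 143 control cells (22.5 CPM) and 12 UMIs in 192 mutant cells (14.0 CPM), and the log2 ratio of -0.68 (-1.85 to 0.42) was within counting error. AT2-like cells had 0 UMIs in both libraries, which allows, at the floor of 3 counts, up to 0.311 CPM in the control and 1.17 CPM in the mutant. *Eras*, which overlaps *Pcsk1n* on the opposite strand, had 0 UMIs in all cells.

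Adrenomedullin RNA came mainly from fibroblast-like cells, and its level was highest there and, in the control library, in lymphatic endothelial-like cells. Fibroblast-like cells held 719 *Adm* UMIs in the control (73.9% of the library's) and 330 in the mutant (50.7%), at 79.7 and 63.3 CPM, a log2 ratio of -0.33 (-0.52 to -0.14). Lymphatic endothelial-like cells came next in the control at 71.1 CPM, within counting error of fibroblast-like cells. Smooth muscle-like cells had 31.8 and 27.1 CPM (87 and 56 UMIs), a log2 ratio of -0.23 (-0.74 to 0.27). Blood vessel endothelial-like cells, low in level but many, held 72 and 146 UMIs.

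The fibroblast-like clusters did not move together. The cluster led by *Pdgfra* and *Npnt*, genes of alveolar fibroblasts, had 173 CPM in 209 control cells and 68.6 CPM in 53 mutant cells (268 and 43 UMIs), a log2 ratio of -1.33 (-1.83 to -0.86). Cells of the cluster led by *Clec3b* and *Dcn*, genes of adventitial fibroblasts, had 67.0 and 93.1 CPM, a log2 ratio of 0.47 (0.22 to 0.72). Those of the cluster led by *Gpc3* and *C3* had 33.7 and 36.5 CPM, a log2 ratio of 0.11 (-0.40 to 0.64), within counting error. The difference between the clusters was not tested.

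Lymphatic endothelial-like cells had 51 *Adm* UMIs in 133 control cells and 7 in 111 mutant cells, at 71.1 and 15.5 CPM, a log2 ratio of -2.20 (-3.58 to -1.05). Few cells carried this difference: 4 control cells held 35 of the 51 UMIs, with up to 15 in 1 cell, while no mutant cell had more than 2. *Adm* was the 1 gene of the 3 measured among the 9 that was 2-fold or more lower in this class, where 1.62% of all genes measured were 2-fold or more lower and 1.85% were higher.

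In blood vessel endothelial-like cells *Adm* was low, and it was higher in the mutant, at 1.95 and 5.21 CPM (72 UMIs in 6828 cells and 146 in 4757), a log2 ratio of 1.42 (0.9996 to 1.84). It was the 1 gene of 7 measured among the 9 past 2-fold there, where 3.66% of all genes measured were higher and 1.82% lower. The unnamed endothelial cluster led by *Rgcc* and *Atf3* had the most, 9.71 and 21.8 CPM, a log2 ratio of 1.17 (0.53 to 1.84), and 10 of its 358 mutant cells held 50 of the 68 UMIs, while only 1 of 433 control cells had 3 or more. General capillary-like cells had 1.35 and 3.22 CPM, a log2 ratio of 1.25 (0.45 to 2.08). Some classes outside the endothelium had similar or higher *Adm* levels from few UMIs. AT2-like cells had 0.829 and 2.34 CPM and pericyte-like cells 2.97 and 14.5 CPM. Not every class was higher in the mutant, as fibroblast-like cells had 79.7 and 63.3 CPM. Monocyte-like cells had 1 and 2 UMIs, both below the floor of 3 counts, so no direction is given for them. With free RNA subtracted in an amount scaled to *Sftpc* (3.09% of the profile in the control and 2.95% in the mutant), the ratio in blood vessel endothelial-like cells was 1.70. That amount rests on 1 gene of AT2 cells, so it cannot show how much free RNA of other cells was carried. The part of free RNA in the general capillary-like values was not tested. AT1-like cells had 0 UMIs in 118 control cells, which allows up to 5.40 CPM at the floor of 3 counts, and 24 UMIs in 24 of 213 mutant cells. Per 100 UMIs of the 8 endothelial markers, that was 0.393 *Adm* UMIs, against 0.0421 in mutant blood vessel endothelial-like cells. The mutant value was 0.148 over all cells, 0.124 in AT2-like and 0.235 in pericyte-like cells. Because *Adm* came mainly from fibroblast-like cells, endothelial markers do not measure its free RNA, and the part of free RNA in the AT1-like value was not tested.

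Apelin RNA marked aerocyte-like cells in both libraries. They held 2742 *Apln* UMIs in 1338 control cells and 2401 in 920 mutant cells, 82.8% and 61.7% of each library's *Apln*, at 286 and 305 CPM. The log2 ratio of 0.09 (0.01 to 0.17) lay just beyond counting error and turned to -0.12 (-0.19 to -0.04) when the libraries were clustered without integration, so no direction is given. At 1000 UMIs per cell, *Apln* was found in 23.5% and 23.9% of aerocyte-like cells (2 and 0 cells were too shallow to be thinned), against 68.5% and 76.7% unthinned, and in 0.211% and 3.95% of AT2-like cells. The endothelial cluster led by *Pf4* and *Nrgn*, which are platelet genes, came next at 133 and 173 CPM. Its closest type was the aerocyte, with 9 aerocyte markers at 2-fold or more, and it was shallow. Its 334 control and 1023 mutant cells had a median depth of 0.248 times the endothelial median of their library. With classes from the clustering of all cells, aerocyte-like cells held 2890 and 2797 *Apln* UMIs, so the shares above depend on how such cells are classed.

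General capillary-like cells and the *Rgcc* and *Atf3* cluster had less *Apln* than aerocyte-like cells and more of it in the mutant. General capillary-like cells had 4.11 and 10.8 CPM (70 and 117 UMIs), a log2 ratio of 1.39 (0.95 to 1.84). Classes outside the endothelium had similar or higher *Apln* levels, at 3.94 and 12.5 CPM in AT2-like, 5.07 and 24.6 CPM in ciliated-like and 8.54 and 21.9 CPM in fibroblast-like cells, and the part of free RNA in the general capillary-like values was not tested. The cluster led by *Rgcc* and *Atf3* had 36.3 and 87.8 CPM (112 and 274 UMIs), a log2 ratio of 1.28 (0.95 to 1.61), and there 9 control cells held 87 and 23 mutant cells held 247 of these UMIs. In this cluster *Adm* and *Apln* were the 2 of 6 measured among the 9 genes that were 2-fold or more higher, against 1.21% of all genes measured, and 0 were 2-fold or more lower, against 0.934%.

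*Aplnr*, the apelin receptor, was high in some endothelial classes and low in others, among them aerocyte-like cells. It stood at 149 and 151 CPM in the cluster led by *Rgcc* and *Atf3*, 142 and 142 CPM in the unnamed cluster led by *Ifit3* and *Ifit1*, which are interferon-induced genes, and 128 and 129 CPM in general capillary-like cells, with log2 ratios of 0.02 (-0.17 to 0.21), 0.00 (-0.36 to 0.35) and 0.01 (-0.09 to 0.10). The 95% intervals of neighbouring classes in this order overlapped in both libraries. Macrophage-like cells had 145 and 9.14 CPM, beside their endothelial markers of 11361 and 1316 CPM. Aerocyte-like cells had 8.24 and 6.47 CPM, a log2 ratio of -0.35 (-0.89 to 0.18). From few UMIs, arterial endothelial-like cells had similarly low levels of 9.86 and 8.78 CPM (11 and 4 UMIs). Lymphatic endothelial-like cells had 9.76 and 13.3 CPM (7 and 6 UMIs). Venous endothelial-like cells, which line the collecting vessels, had 28.1 and 55.7 CPM (109 and 158 UMIs), a log2 ratio of 0.99 (0.63 to 1.35), but at 1000 UMIs per cell the shares with *Aplnr* were 3.19% and 2.86%, so no order is read. The cluster led by *Pf4* and *Nrgn* had 61.6 and 35.7 CPM (59 and 74 UMIs), a log2 ratio of -0.79 (-1.30 to -0.27).

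*Apln* and *Aplnr* were seldom found in the same thinned cell, but these counts cannot show whether the genes avoid each other within a class. Among thinned aerocyte-like cells with *Apln*, 0 of 314 control cells and 0 of 220 mutant cells had *Aplnr*, which allows shares of up to 1.17% and 1.66%. *Aplnr* stood at only 8.24 and 6.47 CPM in all aerocyte-like cells, so few thinned cells would show it with or without *Apln*. Among thinned blood vessel endothelial-like cells with *Apln*, 0.813% and 2.54% had *Aplnr*, against 8.77% and 6.91% of those without *Apln*. That contrast mixes classes, since aerocyte-like cells were high in *Apln* and low in *Aplnr*. It is therefore not read as a difference between cells of 1 class.

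*Calcrl*, the receptor shared by CGRP and adrenomedullin, was an endothelial gene in both libraries. Blood vessel endothelial-like cells held 100776 *Calcrl* UMIs (91.0% of the library's) in the control and 75384 (78.9%) in the mutant, at 2731 and 2689 CPM. Aerocyte-like cells were highest at 3128 and 3090 CPM. General capillary-like cells followed at 2914 and 2915 CPM and the *Ifit3* and *Ifit1* cluster at 2868 and 2890 CPM, which did not differ from each other beyond counting error in either library. Venous endothelial-like cells had 2118 and 2226 CPM, the *Rgcc* and *Atf3* cluster 1941 and 1604 CPM, arterial endothelial-like cells 1014 and 1170 CPM and lymphatic endothelial-like cells 519 and 598 CPM.

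The 2 libraries were close in *Calcrl* within most of these classes. The log2 ratio was -0.02 (-0.04 to 0.01) in aerocyte-like, 0.00 (-0.02 to 0.02) in general capillary-like, 0.07 (0.02 to 0.12) in venous and 0.21 (0.05 to 0.36) in arterial endothelial-like cells. The lowest was -0.28 (-0.33 to -0.22) in the *Rgcc* and *Atf3* cluster. Over the 7 blood vessel classes, 1 ratio lay below and 3 above 0 beyond counting error.

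*Ramp2*, the partner that makes *Calcrl* an adrenomedullin receptor, was lower in the mutant in 6 of 7 blood vessel endothelial classes and *Calcrl* in 1 of 7. In general capillary-like cells there were 58151 UMIs in the control and 22928 in the mutant, at 3413 and 2109 CPM, a log2 ratio of -0.69 (-0.72 to -0.67) that was the 389th lowest of 11525 genes measured in the class. The log2 ratio was -0.89 (-0.94 to -0.83) in the *Rgcc* and *Atf3* cluster, -0.76 (-0.84 to -0.68) in the *Ifit3* and *Ifit1* cluster, -0.44 (-0.51 to -0.38) in the *Pf4* and *Nrgn* cluster, -0.37 (-0.40 to -0.35) in aerocyte-like and -0.34 (-0.39 to -0.29) in venous endothelial-like cells. In arterial endothelial-like cells, -0.06 (-0.19 to 0.07), and lymphatic endothelial-like cells, 0.14 (-0.06 to 0.34), the libraries did not differ beyond counting error. No ratio reached 2-fold.

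The 8 endothelial markers did not move as one block. Their log2 ratios in general capillary-like cells ran from -0.50 (*Ptprb*) to 0.24 (*Cldn5*) with a median of -0.03, so *Ramp2* lay below all 8. In the *Rgcc* and *Atf3* cluster they ran from -0.60 to 0.13, and *Ramp2* again lay below all 8. In aerocyte-like cells, where their median was 0.02, *Ramp2* lay within their range. Their sum was 13784 and 12908 CPM in general capillary-like cells. In the annotation, *Vps25* overlaps *Ramp2* on the same strand, so reads in the shared part may be assigned to neither gene; its log2 ratio in general capillary-like cells, from 91 and 33 UMIs, was -0.82 (-1.44 to -0.23).

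**Figure D3:**
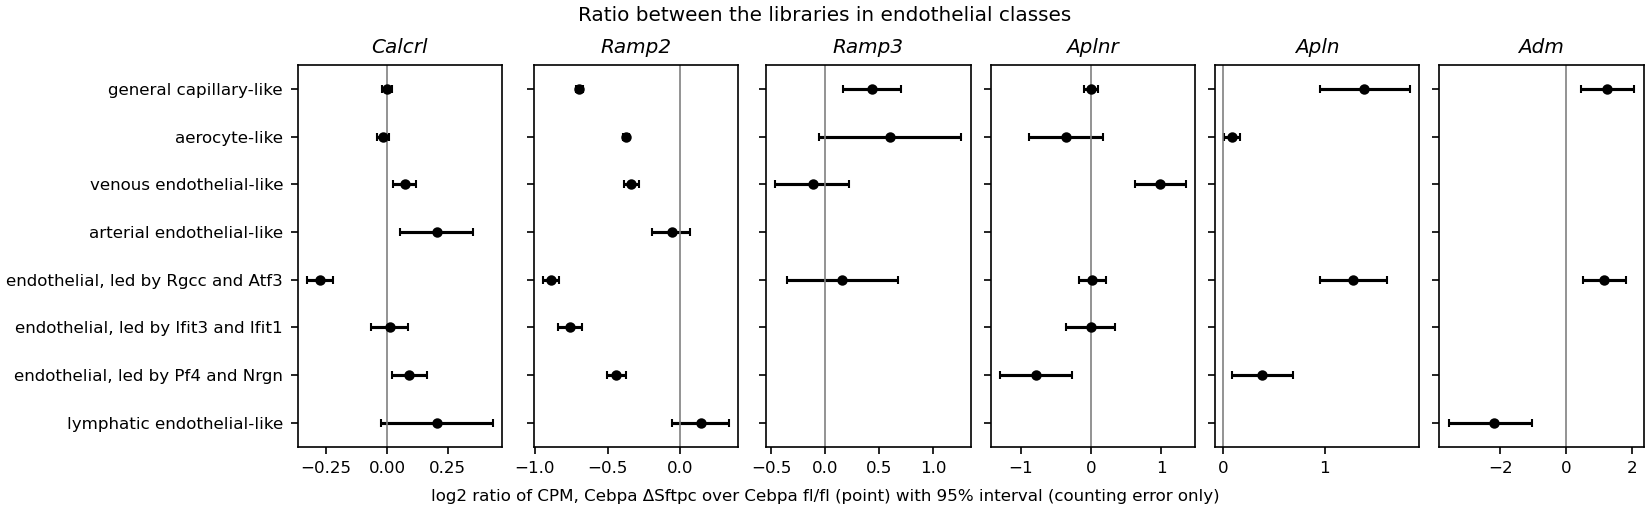
Log2 ratio of CPM, mutant over the control (x axis, a scale of its own in each panel), for 6 genes in 8 endothelial classes (rows), with 95% intervals for counting error; classes with fewer than 50 UMIs of a gene are left empty. Ramp2 lies left of 0 in 6 rows, Calcrl lies between -0.28 and 0.21, and Apln and Adm lie right of 0 outside the lymphatic row.

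Most *Calcrl* cells of these endothelial classes also had *Ramp2*. After thinning each cell to 1000 UMIs, *Ramp2* was found in 97.1% of 1220 control and 92.4% of 832 mutant aerocyte-like cells with *Calcrl*. The shares were 92.2% of 3236 and 81.9% of 1645 general capillary-like cells (intervals 91.2% to 93.1% and 80.0% to 83.8%), 83.3% and 70.9% of venous endothelial-like cells and 86.5% and 68.5% in the *Rgcc* and *Atf3* cluster. *Ramp1*, which would make a CGRP receptor, was found in only 5 of 5778 and 12 of 3875 thinned blood vessel endothelial-like cells with *Calcrl* (0.0865% and 0.310%). Most general capillary-like cells without *Calcrl* had *Ramp2* too, at 89.1% and 72.0%, against 92.2% and 81.9% of those with it.

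*Ramp3*, the other adrenomedullin receptor partner, was a venous gene within the endothelium. It stood at 46.6 and 43.0 CPM in venous endothelial-like cells (181 and 122 UMIs), a log2 ratio of -0.12 (-0.46 to 0.22), and at 46.4 and 43.3 CPM in T or NK cell-like cells, so these 2 classes did not differ beyond counting error. The *Rgcc* and *Atf3* cluster had 20.4 and 22.8 CPM and aerocyte-like cells 3.86 and 5.84 CPM. General capillary-like cells had 14.4 and 19.5 CPM (246 and 212 UMIs), a log2 ratio of 0.43 (0.16 to 0.70), and blood vessel endothelial-like cells as a whole 15.3 and 17.4 CPM, a log2 ratio of 0.19 (0.01 to 0.37) that was 0.16 (-0.02 to 0.33) without integration, within counting error. Thinned to 1000 UMIs, 5.21% of 595 and 4.69% of 384 venous endothelial-like cells had *Ramp3*, against 0 of 473 and 0.741% of 405 AT2-like cells.

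In 4 classes not named as endothelial, *Calcrl* differed between the libraries in the same direction as the endothelial markers. Ciliated-like, pericyte-like and smooth muscle-like cells did so too, but not every class did. In the unnamed cluster led by *Ccl5* and *Trbc2*, *Calcrl* stood at 1491 and 1738 CPM and the markers at 8022 and 7356 CPM. In neutrophil-like cells *Calcrl* stood at 661 and 779 CPM and the markers at 3766 and 3319 CPM. Of the 4 classes, macrophage-like cells of the control had the markers at 11361 CPM, near the 12692 CPM of blood vessel endothelial-like cells. This goes against their name, so unlike cells are compared in that class. *Calcrl* stood at 87.8 and 420 CPM in AT2-like cells, 151 and 1442 CPM in AT1-like cells and 188 and 609 CPM in fibroblast-like cells, all higher in the mutant, and at 2237 and 289 CPM in macrophage-like cells, lower in the mutant. Per 100 UMIs of the 8 endothelial markers, mutant blood vessel endothelial-like cells had 21.7 *Calcrl* UMIs, and AT2-like, AT1-like, fibroblast-like and macrophage-like cells of that library had 22.3, 22.6, 21.0 and 21.9. In the control the value was 21.5 in blood vessel endothelial-like cells and 11.7, 13.6, 14.6 and 19.7 in these 4 classes. For *Ramp2* the mutant values were 18.7 in blood vessel endothelial-like cells and 17.6, 19.3, 20.8 and 16.7 in the 4 classes, and the control values were 26.4 and 19.6, 14.6, 25.98 and 28.2. *Calcrl* and *Ramp2* in these classes are not read as expression. In the fibroblast-like cluster led by *Clec3b* and *Dcn*, both were lower in the mutant, as were the markers (1061 and 474 CPM): *Calcrl* stood at 135 and 61.9 CPM, a log2 ratio of -1.13 (-1.40 to -0.86), and *Ramp2* at 288 and 159 CPM, a log2 ratio of -0.85 (-1.03 to -0.69). *Ramp2* there was 27.2 and 33.6 UMIs per 100 marker UMIs, above the 26.4 and 18.7 of blood vessel endothelial-like cells, and the part of free RNA in it was not tested.

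**Figure D4:**
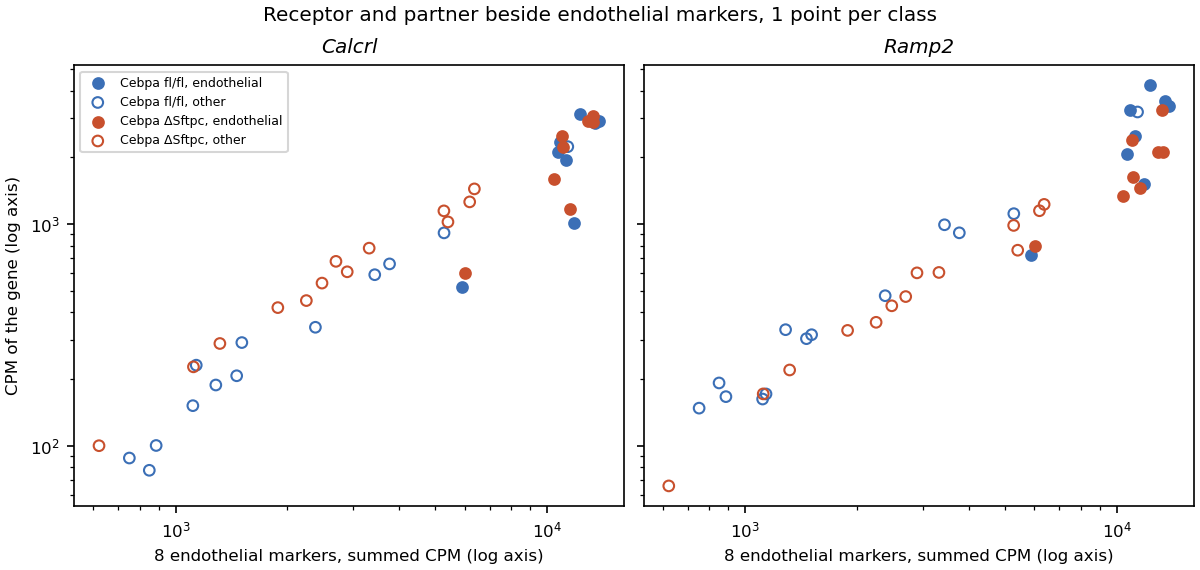
CPM of Calcrl (left) and Ramp2 (right) against the summed CPM of 8 endothelial markers, both axes logarithmic, with 1 point per class and library; filled points are endothelial classes. Open points rise with the marker sum in both libraries, and mutant filled points lie lower for Ramp2 than control filled points.

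The share of AT2-like cells with *Calcrl* is given for comparison. Among thinned AT2-like cells, *Calcrl* was found in 6.55% of 473 control and 49.9% of 405 mutant cells, 1 and 89 cells being too shallow to be thinned, and in 89.1% and 88.6% of general capillary-like cells, whose median depths were 4285 and 5286 UMIs. Unthinned, the AT2-like shares were 40.1% and 63.6%. In AT2-like cells 4 of 5 measured genes among the 9 (*Ramp2*, *Apln*, *Aplnr* and *Calcrl*) were 2-fold or more higher in the mutant, against 9.55% of all genes measured, and 0 were 2-fold or more lower, against 1.09%; these 4 are genes of endothelial cells. In fibroblast-like cells 4 of 6 were higher, against 5.99% of all genes, and 0 lower, against 1.09%.

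*Ramp1*, the CGRP receptor partner, had a different map. In the control, AT2-like cells held 1837 *Ramp1* UMIs, 73.5% of the library's, at 190 CPM. In the mutant they held 338 UMIs (10.0%) at 132 CPM, a log2 ratio of -0.53 (-0.70 to -0.36). With the 440 and 91 AT2-like cells of the clustering without integration the counts were 1813 and 263, a log2 ratio of -0.05 with an interval (-0.25 to 0.13) that spans 0, so no direction is given. Thinned to 1000 UMIs, *Ramp1* was found in 17.1% and 8.40% of AT2-like cells, against 0.110% and 0.216% of general capillary-like cells; unthinned the AT2-like shares were 90.3% and 22.9%. Ciliated-like cells, which move mucus, had 78.3 and 56.1 CPM, a log2 ratio of -0.48 (-0.84 to -0.13). At a resolution of 1.0, ciliated-like cells lay in a cluster of 174 control and 31 mutant cells and another of 39 and 493. Median depths in these clusters were 3.91 and 0.50 times the median of each cell's library. The make-up of the class thus differed between the libraries, so no direction is given here either.

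Immune and muscle cells also held *Ramp1*, beside the ciliated-like cells with 278 and 89 UMIs. Macrophage-like cells had 10 UMIs in 261 control cells (7.86 CPM) and 1531 in 1084 mutant cells (212 CPM), a log2 ratio of 4.75 (3.87 to 5.82), but the 2 groups of cells were not alike. The control cells had endothelial markers at 11361 CPM, near the 12692 CPM of blood vessel endothelial-like cells, which goes against their name, and without integration only 7 control and 793 mutant cells were macrophage-like, with a log2 ratio of -0.32 (-1.87 to 1.96). No difference between the genotypes is therefore read from this class. A cluster of deep cells led by *Chil3* and *Atp6v0d2*, genes of alveolar macrophages, held 1048 of these UMIs in 169 mutant cells and only 5 control cells. The cluster led by *Mgl2* and *Ccl17*, with 252 and 270 cells, had 5.56 and 105 CPM, and its control cells had endothelial markers at 11364 CPM against 1196 CPM. Monocyte-like cells had 143 and 116 CPM, a log2 ratio of -0.30 (-0.79 to 0.23), and T or NK cell-like cells 108 and 111 CPM, a log2 ratio of 0.03 (-0.47 to 0.58).

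Smooth muscle-like and pericyte-like cells together, which surround airways and vessels, had 164 and 168 *Ramp1* UMIs at 43.8 and 64.3 CPM, a log2 ratio of 0.55 (0.23 to 0.87). At 1000 UMIs per cell the shares with *Ramp1* were 4.93% of 649 and 4.55% of 528 cells, with 34 and 89 cells too shallow, so no order is read. The cluster led by *Acta2* and *Myh11*, contractile genes, had most of it, at 137 and 165 CPM, a log2 ratio of 0.27 (-0.09 to 0.63) that was within counting error. The cluster led by *Hhip* and *Aspn* had 21.7 and 18.2 CPM and pericyte-like cells 1.98 and 9.08 CPM. The *Acta2* and *Myh11* cluster made up 143 of the 683 control and 192 of the 617 mutant cells of the joint class.

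**Figure D5:**
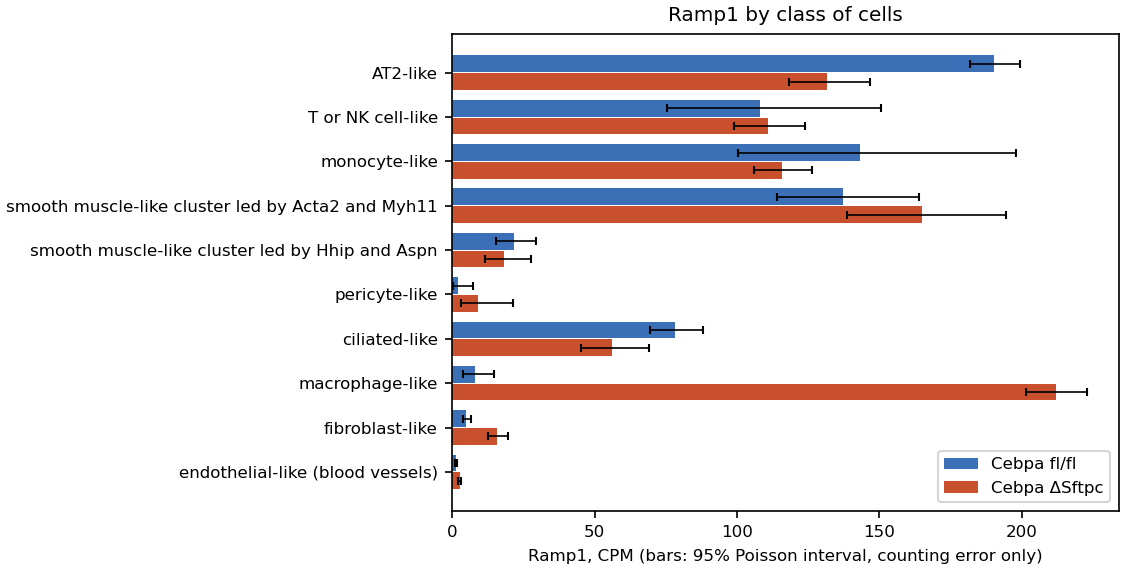
Ramp1 CPM (x axis) in 10 classes or clusters of cells in the control (blue) and mutant (red) libraries, with 95% Poisson intervals for counting error as error bars. AT2-like cells stand at 190 and 132 CPM, macrophage-like cells at 7.86 and 212 CPM, and endothelial-like cells near 0.

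In general capillary-like cells, 7 of the 9 genes were measured at 50 UMIs or more. *Adm* and *Apln* were 2-fold or more higher in the mutant, against 2.45% of all genes measured, and 0 were 2-fold or more lower, against 1.5%. In aerocyte-like cells 0 of 5 passed 2-fold either way (background 1.76% higher and 0.908% lower), and in venous endothelial-like cells 0 of 4 (0.877% and 0.652%).

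Lists of genes of the pathway were described in general capillary-like cells, beside 2.45% of all genes measured that were 2-fold or more higher and 1.5% lower. Of 7 receptor and partner genes measured, 0 passed 2-fold in either direction, with a median log2 ratio of 0.01 against -0.02 over all genes measured; *Ackr3*, a scavenger receptor for adrenomedullin, stood at 0.41 there and at 1.12 in aerocyte-like cells. Of 12 genes of cAMP and arrestin signalling, 1 was higher, the phosphodiesterase gene *Pde4b*, which breaks down cAMP, at 1.33 (1.27 to 1.40), and 0 were lower, with a list median of 0.12 and the lowest value -0.28 for *Pde3a*. Of 5 genes of peptide breakdown, 0 were higher and 1 was lower, the neprilysin gene *Mme* at -1.28 (-2.39 to -0.30) from 42 and 11 UMIs, with a median of -0.48; *Ece1*, an endothelin-converting enzyme, stood at -0.52. Of 3 peptide processing genes measured, 0 passed 2-fold; *Pam*, which amidates peptides such as CGRP and adrenomedullin, stood at -0.32, and *Furin* at 0.24.

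Lists of genes of the hypoxia response and of sprouting tip cells, among which *Adm* and *Apln* are known, were also described in general capillary-like cells. There, 2.45% of all genes measured were 2-fold or more higher and 1.5% lower. The medians of these lists lay on opposite sides of 0, and each list held values of both signs. Of 11 hypoxia response genes measured, 2 were 2-fold or more higher, *Ankrd37* at 3.25 (3.05 to 3.44) and Ndrg1 at 1.09 (0.89 to 1.29), and 0 were lower, with a median of 0.34; *Vegfa*, the vascular growth factor, was the lowest at -0.32. Of 7 tip cell genes measured, 2 were lower, *Esm1* at -2.02 (-2.33 to -1.73) and *Angpt2* at -1.39 (-1.64 to -1.15), and 1 was higher, *Cd34* at 1.42 (1.33 to 1.50), with a median of -0.52. *Esm1* was also among the leading genes of the cluster led by *Rgcc* and *Atf3*. That cluster is counted apart from general capillary-like cells, so these values do not describe it.

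For each of the 9 genes the 3 genes with the most similar levels were found by Pearson's r of log2(CPM + 10) over 46 points, a point being a class in 1 library, among 13896 genes. The points of a library share their free RNA. *Calca* and *Pcsk1n* had the same 3 genes, *Resp18* (0.96 and 0.92), which is one of the 13 neuroendocrine markers, *Nnat* (0.89 and 0.90) and *B630019K06Rik* (0.81 and 0.87), and these rest on the few neuroendocrine cells. *Calcrl* was most like *Cdh5* (0.98), *Tnfsf10* (0.97) and *Acvrl1* (0.97), and *Ramp2* most like *Fmo1* (0.98), *Cdh5* (0.98) and *Acvrl1* (0.97). *Aplnr* was most like *Kit* (0.97), *Glp1r* (0.97) and *Gpihbp1* (0.95), of which *Kit* and *Gpihbp1* served to name general capillary-like cells. *Apln* was most like *Ccdc184* (0.90), *Rprml* (0.88) and *Car4* (0.87), *Adm* like *Adamts15* (0.87), *Mn1* (0.86) and *Osr1* (0.83), *Ramp1* like *Ldha* (0.76), *Rbm47* (0.74) and *Soat1* (0.73), and *Ramp3* like *Rnf125* (0.75), *Gata3* (0.75) and *Klk8* (0.74).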

How the data were processed

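Whole UMI counts per gene and cell, which the authors deposited without normalization, came from mm10 and Cell Ranger; the file header names version 5.0.0 and the submitters' processing notes 6.1.1. The labels mention sorting and the study whole-lung suspensions. Barcodes under 200 genes or above 20% mitochondrial counts were dropped. With R 4.3.3, Seurat 5.3.0, SeuratObject 5.2.0 and sctransform 0.4.2, libraries were normalized with SCTransform, integrated by anchors on 3000 variable genes without the 9 genes, and clustered at a resolution of 0.5 on 30 principal components; endothelial cells were reclustered at 0.3. Clusters were named from marker lists and left unnamed when the rule failed; a difference from the study may come from rebuilt names. The 9 genes, the lists and the naming rule were chosen with earlier results of these data known.

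The libraries held 69200420 and 64697396 UMIs. Doublets were kept, because Scrublet's automatic threshold called 0 cells in each library; the top 8% by score (919 and 1059 cells) were left out as an alternative. UMIs were summed per class and library in Python 3.11.15 (scanpy 1.11.5, scipy 1.17.1, numpy 2.4.6, pandas 2.3.3), and drawn with matplotlib 3.10.9. Ratios floor each sum at 3 counts and carry exact conditional binomial intervals. Their calculation was tested on simulated Poisson counts, the model that the intervals assume. That test could not show how UMIs held by few cells affect the intervals. Levels carry Poisson and shares Clopper-Pearson intervals. A gene counted as measured in a class with at least 50 UMIs over both libraries, and 2-fold was the limit for calling it higher or lower. Named genes are the 9, genes of fixed pathway lists at their extremes, class markers, and cells or genes said to be chosen after their values were seen. Positions are those of GENCODE M21 for GRCm38; *Calcrl* lies on chromosome 2, bases 84330626 to 84425411, *Ramp1* on chromosome 1, 91179822 to 91225196, *Ramp2* on chromosome 11, 101246028 to 101259546, *Ramp3* on chromosome 11, 6658521 to 6677475, and *Aplnr* on chromosome 2, 85136225 to 85139923.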

Additional observations from a re-analysis of the deposited data

Results flagged for a closer look

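For 6 of the 9 genes the log2 ratio lay below 0 in some class and above 0 in another beyond counting error. The same count was not made over all genes, so it is not read as a trait of these 9. The difference between the classes was not tested, as each genotype had 1 library. Among single classes with at least 50 UMIs of the gene, *Adm* had its lowest ratio, -2.20, in lymphatic endothelial-like cells and its highest, 1.25, in general capillary-like cells. *Calcrl* ran from -2.95 in macrophage-like to 3.25 in AT1-like cells and *Ramp2* from -3.87 to 2.92 in the same 2 classes, in which the endothelial markers went from 11361 to 1316 CPM and from 1113 to 6369 CPM. *Aplnr* ran from -3.99 in macrophage-like to 2.09 in AT2-like cells, where the markers went from 751 to 1885 CPM. *Ramp3* ran from -2.19 in macrophage-like cells to 0.83 in the unnamed cluster led by *Ccl5* and *Trbc2*. *Ramp1* ran from -0.53 in AT2-like to 4.75 in macrophage-like cells, and without integration these values were -0.05 (-0.25 to 0.13) and -0.32 (-1.87 to 1.96), both within counting error. The part of free or attached endothelial RNA in these values was not tested beyond the marker levels given.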

How the results depend on the processing

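Of 102 values computed under alternatives, 87 lay within the counting interval of the main value. The *Apln* ratio in aerocyte-like cells, 0.09, turned to -0.12 without integration, to -0.01 at a resolution of 1.0 and to -0.01 with classes from the clustering of all cells (-0.0118 and -0.0097). The *Calcrl* ratio in blood vessel endothelial-like cells, -0.02, turned to 0.01 (0.0051) as a mean over cells and to 0.00 (0.00027) in general capillary-like cells alone. The *Aplnr* ratio in general capillary-like cells, 0.01, moved to -0.17 without integration. The *Ramp2* ratio in blood vessel endothelial-like cells, -0.54, moved to -0.56 without integration and to -0.69 in general capillary-like cells alone, and the *Ramp3* ratio, 0.19, to 0.43 in the latter. Among cells with at least 3000 UMIs, the share of UMIs in the 5 top cells of *Cebpa* ΔSftpc moved from 37.8% to 57.7% for *Calca* and from 46.2% to 83.3% for *Pcsk1n*. *Calca* and *Pcsk1n* had no ratio in AT2-like cells under any setting, because both counts were at or below 3. With neuroendocrine-marker cells added the *Calca* ratio, -1.68, moved to -0.92 without integration and -2.51 among cells with at least 3000 UMIs, and the *Pcsk1n* ratio, -1.24, ran from -2.13 to -0.43 and lay within counting error without integration and at a resolution of 1.0. The *Ramp1* ratio moved from -0.53 to -0.05 in AT2-like cells and from 4.75 to -0.32 in macrophage-like cells without integration. The restriction to single classes, the class from all cells the added neuroendocrine cells and these settings for *Ramp1* were chosen after seeing the data. The causes were not tested. No paired analysis was possible because each genotype had 1 library. Depth limits *Pcsk1n* most, with 91 and 26 UMIs, and the unequal depth of AT2-like cells limits every share of cells in them.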
